A study of Danio rerio with 19 samples.

Results

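Genes of the radial astroglia, the glial cells that span the wall of the fish brain, were followed in single larval zebrafish heads from the scn1lab and dyrk1a mutant lines. The 10 genes were chosen by name: gfap, fabp7a, s100b, glula, slc1a2b, slc1a3b, gja1, mfge8a, cyp19a1b and sox2. Of these names, 5 were found as written in the table that pairs gene IDs with symbols. The other 5 were found after their final paralog letter was removed, and every gene ID with that symbol was taken. This gave 14 gene IDs of the 32020 in each count table. The symbols are in the human style, so FABP7, GLUL, SLC1A2 and SLC1A3 each stand for a pair of IDs. The table does not say which ID is the a or the b copy of the fish, so values are given per ID.

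The scn1lab line carries scn1labΔ44, a deletion in the gene of a sodium channel that opens with voltage, and gave 3 homozygous larvae (HOM), 3 heterozygotes (HET) and 3 wild types (WT). The dyrk1a line carries dyrk1aaΔ77 and dyrk1abΔ8, deletions in both fish copies of a protein kinase gene, with 4 HOM, 3 HET and 3 WT larvae. All 19 larvae came from incrosses of heterozygous fish and were siblings or cousins within a line, and each library was made from 1 head whose eyes had been taken off. The mutations are carried by every cell of the larva, and their ages are not in the labels. The labels call the material whole brain, while the protocol and the transcripts describe a head: besides the neuronal gene ELAVL3, at 53.8 to 546 CPM (counts per 1 M counts of the library), every library held the skin keratin gene krt4, at 6680 to 50500 CPM.

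In the zebrafish brain radial astroglia do much of the work that star-shaped astrocytes do in mammals, and they keep the long processes and part of the stem cell capacity of embryonic radial glia. They take glutamate up from around synapses, turn it into glutamine, couple to each other through gap junctions and, in the adult forebrain, make estrogen from androgen. The genes below fall into these roles: the cytoskeleton and other cell-identity proteins (GFAP, FABP7, S100B), glutamate handling (GLUL, SLC1A2, SLC1A3), coupling (GJA1), a secreted glycoprotein (mfge8a), estrogen synthesis (CYP19A1) and the progenitor state (SOX2).

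Total counts per library were 15.1 to 29.9 M. Levels are CPM on library sizes scaled by the trimmed mean of M-values (TMM) over all 19 libraries. The TMM factors were 0.77, 1.03 and 0.68 in scn1lab HOM1, HOM2 and HOM3, and 0.82, 0.79 and 0.75 in HET1, HET2 and HET3. They were 1.08, 1.11 and 1.21 in scn1lab WT1, WT2 and WT3, and 1.01 to 1.23 in the dyrk1a libraries. A lower factor gives higher CPM for the same counts and depth. Genes of digestive organs, which are not part of a head, made up 10.7%, 0.0415% and 14.7% of counts in the scn1lab heads HOM1, HOM2 and HOM3, and 0.683%, 9.23% and 1.07% in HET1, HET2 and HET3. They took 0.025% to 0.246% in scn1lab WT, 5.16% in dyrk1a HET4 and at most 0.186% in the other dyrk1a libraries. The targeted transcripts were not lost: scn1lab stood at 6.39 to 16.3 CPM in scn1lab HOM and 15.5 to 18.5 CPM in WT (log2 change -0.41, SE 0.46, edgeR adjusted p = 0.666). DYRK1A ENSDARG00000023814 stood at 39.3 to 58.8 CPM in dyrk1a HOM and 35.2 to 38.2 CPM in WT (0.36, SE 0.17, edgeR adjusted p = 0.655), and DYRK1A ENSDARG00000063570 at 6.92 to 24.8 CPM and 8.76 to 17.7 CPM (0.45, SE 0.46, edgeR adjusted p = 0.876). Small deletions need not lower a transcript, so these levels do not check the genotypes.

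In scn1lab HOM heads, 4 of the 13 radial astroglia IDs tested lay below every WT head, where 18.3% of all genes tested did. These were a GLUL ID, an SLC1A2 ID, GJA1 and mfge8a, with fitted levels 2.23- to 3.97-fold lower. GFAP, both FABP7 IDs, S100B, the other GLUL ID, both SLC1A3 IDs and SOX2 overlapped between HOM and WT. The fall of the 4 passed the threshold in edgeR's quasi-likelihood test when only the HOM and WT libraries were fitted, and in DESeq2, but not in the edgeR fit that also held the HET libraries. The values of all 12 well-measured IDs are drawn library by library.

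**Figure D1:**
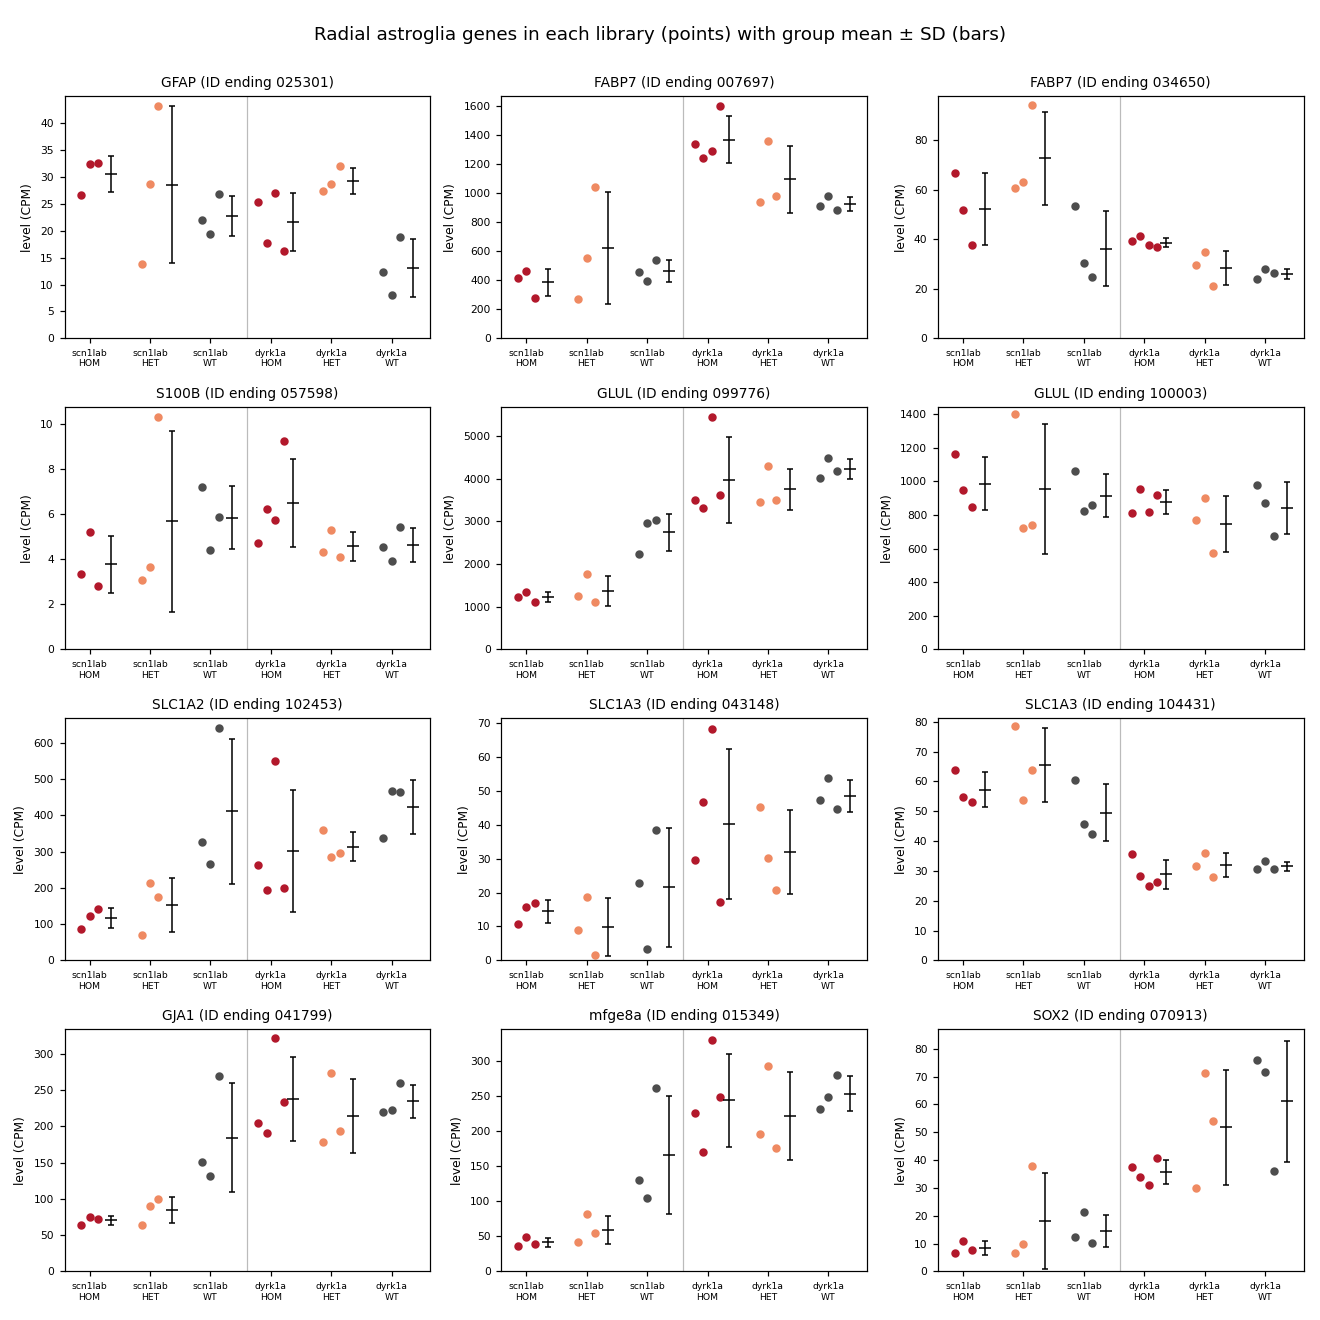
Level in CPM (y axis, starting at 0) of 12 radial astroglia gene IDs in each of 19 libraries (points) by line and genotype, with the group mean and SD as a bar beside the points. GLUL ENSDARG00000099776, SLC1A2 ENSDARG00000102453, GJA1 and mfge8a are low in all scn1lab HOM and HET libraries relative to scn1lab WT, and the dyrk1a groups of these genes overlap.

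GLUL encodes glutamine synthetase, which joins ammonia to glutamate. GLUL ENSDARG00000099776 had levels of 1230, 1350 and 1100 CPM in the 3 scn1lab HOM heads, against 2240, 2960 and 3030 CPM in the 3 WT heads. The HOM heads lay close together, and the lowest WT head was well above the highest of them. The log2 change was -1.16 (SE 0.30, edgeR adjusted p = 0.158), with adjusted p = 0.0236 in edgeR on the 6 HOM and WT libraries alone and 0.00126 in DESeq2. GLUL ENSDARG00000100003 showed no such gap, at 1160, 947 and 850 CPM in HOM against 1060, 824 and 861 CPM in WT (log2 change 0.11, SE 0.33, edgeR adjusted p = 0.885). The share of the first ID in the summed level of both was 51.4% to 58.7% in HOM libraries and 67.9% to 78.2% in WT libraries, a ratio not corrected for transcript length.

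SLC1A2 is the main glutamate transporter of astrocytes in the mammalian forebrain. SLC1A2 ENSDARG00000102453 had levels of 87.3, 123 and 141 CPM in scn1lab HOM1, HOM2 and HOM3, against 328, 267 and 640 CPM in WT1, WT2 and WT3. The WT heads were widely spread, and WT3 was the highest of all 19 libraries. The log2 change was -1.81 (SE 0.47, edgeR adjusted p = 0.16), with adjusted p = 0.0318 in edgeR on the HOM and WT libraries alone and 0.00906 in DESeq2. SLC1A3 is the second glial glutamate transporter, and both of its IDs overlapped between HOM and WT. SLC1A3 ENSDARG00000043148 stood at 10.6, 15.7 and 17 CPM in HOM and at 22.8, 3.42 and 38.4 CPM in WT, so that WT2 was lower than every HOM head (log2 change -0.57, SE 0.89, edgeR adjusted p = 0.764). SLC1A3 ENSDARG00000104431 stood at 63.8, 54.9 and 53 CPM in HOM against 60.4, 45.7 and 42.4 CPM in WT (0.21, SE 0.24, edgeR adjusted p = 0.666).

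GJA1 is connexin 43, the channel protein of astrocyte gap junctions. Its levels were 63.4, 75.6 and 72.3 CPM in scn1lab HOM heads 1 to 3, against 151, 131 and 270 CPM in WT heads 1 to 3. The HOM values were nearly level, and WT3 again was the highest WT head. The log2 change was -1.38 (SE 0.32, edgeR adjusted p = 0.156), with adjusted p = 0.0325 in edgeR on the HOM and WT libraries alone and 0.00534 in DESeq2. The mfge8a gene encodes a secreted glycoprotein whose mammalian relative binds phosphatidylserine on dying cells and hands them to phagocytes. It stood at 36.6, 49.2 and 39.2 CPM in HOM and at 130, 105 and 261 CPM in WT, so that the lowest WT head was far above the highest HOM head. Its log2 change was -1.99 (SE 0.39, edgeR adjusted p = 0.148), with adjusted p = 0.0268 in edgeR on the HOM and WT libraries alone and 0.000373 in DESeq2.

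The identity genes and SOX2 did not lie wholly apart from WT in scn1lab HOM. GFAP, the intermediate filament protein that names the cells, stood at 26.7 CPM in HOM1 and at up to 32.5 CPM in the other HOM heads, against 22, 19.4 and 26.8 CPM in WT, with WT3 just above HOM1 (log2 change 0.43, SE 0.37, edgeR adjusted p = 0.561). FABP7, the brain lipid-binding protein of radial glia, averaged 386 ± 95.6 CPM in HOM against 464 ± 72.7 CPM in WT for ENSDARG00000007697 (-0.26, SE 0.45, edgeR adjusted p = 0.787; SD, n = 3 each). FABP7 ENSDARG00000034650 averaged 52.1 ± 14.5 CPM in HOM against 36.2 ± 15.2 CPM in WT (0.53, SE 0.35, edgeR adjusted p = 0.44). For all of these the groups overlapped. S100B, a small calcium-binding protein of astrocytes with 44 to 183 counts per library, stood at 3.32, 5.21 and 2.81 CPM in HOM against 7.21, 4.41 and 5.87 CPM in WT (-0.62, SE 0.54, edgeR adjusted p = 0.564). SOX2, a transcription factor of neural stem cells, stood at 6.5, 11.1 and 7.74 CPM in HOM against 12.3, 21.2 and 10.3 CPM in WT, and HOM2 lay above WT3 (-0.79, SE 0.62, edgeR adjusted p = 0.516). The errors of S100B and SOX2 are wide, so a fall as large as that of GLUL ENSDARG00000099776 is not excluded for either.

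Of the 13 IDs tested in scn1lab HOM against WT, edgeR on all 9 libraries of the line called 0 (0.00466% of all genes were called) and 4 had an unadjusted p under 0.05, as did 18.9% of all genes. EdgeR on the HOM and WT libraries alone called 4 of 13 as lower (5.75% of genes were called lower), and DESeq2 on all 9 libraries called the same 4 (3.75% of genes lower). Groups did not overlap for 4 members that lay below WT, where 18.3% of all genes did, and for 0 that lay above, where 18.2% did. The fit of HOM and WT alone rests on each library: it called 0 of the members without HOM1, without WT2 or without WT3, 1 without HOM3, and 2 without HOM2 or without WT1. The number called over all genes, 2077 with no library left out, also fell in each of these fits, as given further below. A loss of calls was thus not limited to the members. Whether the members lost a larger share of their calls than other genes was not tested. In a bulk library, fewer cells of a type and less RNA of a gene in each cell cannot be told apart.

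A fit with the digestive level as a covariate is given further below for mfge8a. It does not settle the part of digestive transcripts in these values, as the scn1lab shares above 4% were in HOM and HET libraries only. HOM2, at a digestive share of 0.0415%, lay below every WT head in GLUL ENSDARG00000099776, SLC1A2 ENSDARG00000102453, GJA1 and mfge8a. These 4 IDs were singled out because every HOM head, HOM2 included, did so. The place of HOM2 was thus set by that choice and carries no separate weight. Without the libraries above 4% (HOM1, HOM3 and HET2), which leaves HOM2 alone and assumes that it varies like the other groups, the log2 changes were -1.03, -1.74, -1.29 and -1.75 in the same order. None was then called (edgeR adjusted p = 0.83 for mfge8a).

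Markers of other cells also lay apart in these heads. Over all genes tested in scn1lab HOM against WT, 18.3% lay below every WT head and 18.2% above. The 30 neuronal IDs summed to 2650 to 3660 CPM in scn1lab HOM and 6200 to 7170 CPM in WT, and 25 of 30 lay below every WT head, with a median log2 change of -1.40. Skin and epithelial markers summed to 53400 to 80900 CPM in HOM against 27500 to 46300 CPM in WT, and 22 of 29 tested lay above every WT head (median 1.04). Oligodendrocyte markers summed to 678 to 981 CPM in HOM against 1070 to 1250 CPM in WT, with 6 of 13 below every WT head and 2 above. The part of these cells in the result was not tested. Photoreceptor and Müller glia markers, which would follow remnants of the eye, summed to 114 to 551 CPM in HOM against 72.2 to 6350 CPM in WT, with rlbp1a of the Müller glia at 0 to 1.03 CPM in HOM against 0.512 to 41.1 CPM in WT. The lowest value, 72.2 CPM, was that of WT1, and WT2 and WT3 held the highest sums of the line. The part of eye tissue in the result was not tested.

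**Figure D2:**
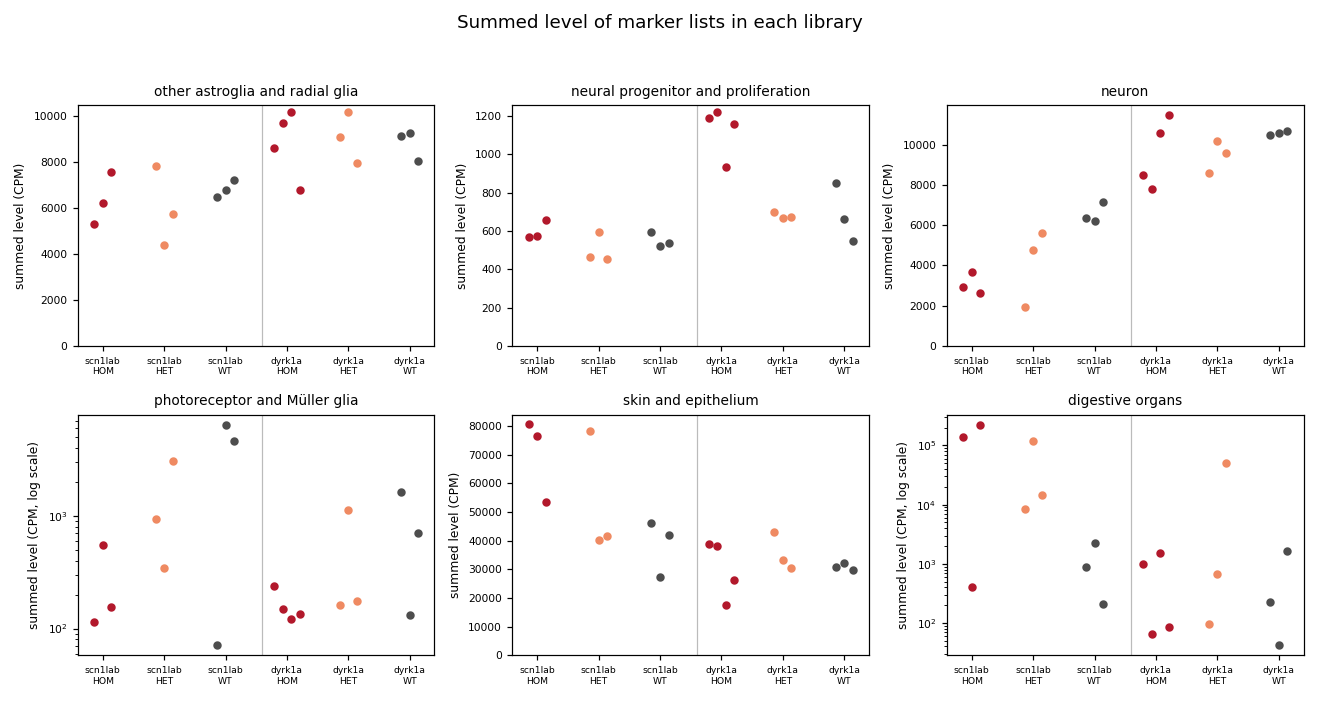
Summed level in CPM (y axis, log scale for the photoreceptor and Müller glia list and for the digestive list) of 6 marker lists in each library (points), by line and genotype. In scn1lab the neuronal sum is 2650 to 3660 CPM in HOM against 6200 to 7170 CPM in WT, while the sum of other astroglia markers overlaps between the genotypes. Of the 49 other astroglia IDs tested, 24 lay below every WT head in scn1lab HOM, where 18.3% of all genes tested did.

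Heterozygous scn1lab heads gave the same order. GLUL ENSDARG00000099776 had levels of 1260, 1760 and 1100 CPM in HET1, HET2 and HET3, SLC1A2 ENSDARG00000102453 at 69.6, 213 and 176 CPM, GJA1 at 64.7, 89.7 and 100 CPM and mfge8a at 42.5, 81.4 and 55 CPM. All of these lay below every WT head, and in SLC1A2 HET1 was well below HET2 and HET3. The log2 changes against WT were -1 (SE 0.30), -1.43 (SE 0.47), -1.11 (SE 0.31) and -1.47 (SE 0.38), each with an edgeR adjusted p of 0.341. HET and HOM are set against the same WT libraries, so their changes are not independent of each other. Markers of other cells lay apart in HET as well. The neuronal sum was 1920, 4760 and 5630 CPM in HET1, HET2 and HET3, against 6200 to 7170 CPM in WT. Of 30 neuronal IDs, 10 lay below every WT head (median log2 change -1.03), where 11.0% of all genes did. For other astroglia IDs it was 16 of 49 (median -0.67). The part of these cells in the HET result was not tested.

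Of the 13 IDs tested in scn1lab HET against WT, edgeR called 0 with all libraries of the line (0% of genes) and 0 with HET and WT alone, with 5 at an unadjusted p under 0.05 in each, against 13.2% of all genes in the whole-line fit and 10.3% with HET and WT alone. DESeq2 called 2 as lower, GLUL ENSDARG00000099776 (adjusted p = 0.0245) and mfge8a (adjusted p = 0.0416), where it called 0.736% of all genes as lower. Groups did not overlap for the 4 members below WT (11.0% of genes lay below) and for 1 above (9.80% lay above). That one was FABP7 ENSDARG00000034650, at 60.8, 63 and 94.1 CPM in HET against 53.4, 30.4 and 24.7 CPM in WT (log2 change 1.01, SE 0.35, edgeR adjusted p = 0.341). TMM factors were lower in every HET library than in every WT library, which raises HET levels relative to WT. The part of the scaling in this gap was not tested. HET3 held the highest value of 7 of the 13 IDs in its group, among them GFAP at 43.2 CPM, S100B at 10.3 CPM and SOX2 at 37.8 CPM.

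In scn1lab HOM against HET no member passed the threshold, and hardly any other gene did. The median log2 change of the 13 IDs was -0.38 with 10 below 0. Over all genes it was 0.01, with 10504 of 21466 below 0. Of 13 IDs, 0 were called by edgeR (0.00466% of genes) and 0 by DESeq2 (58 of 21466 genes). An unadjusted p under 0.05 was found for 0 (4.26% of genes). These counts are near the shares over all genes. No group lay wholly below (2.90% of genes did) or above (4.97% did) the other. The log2 change of mfge8a was -0.52 (SE 0.38) and that of GLUL ENSDARG00000099776 was -0.16 (SE 0.29).

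In dyrk1a heads the 4 genes that stood apart in scn1lab had overlapping groups. GLUL ENSDARG00000099776 stood at 3510, 3310, 5460 and 3610 CPM in the HOM heads (numbers 1, 2, 3 and 5), against 4030, 4490 and 4190 CPM in the WT heads (numbers 1, 2 and 4) (log2 change -0.09, SE 0.17, edgeR adjusted p = 0.958). SLC1A2 ENSDARG00000102453 stood at 263, 194, 550 and 200 CPM in HOM against 337, 468 and 464 CPM in WT (-0.49, SE 0.33, edgeR adjusted p = 0.774). In both genes HOM3 was the highest HOM head, above every WT head, while the other HOM heads lay below every WT head. GJA1 stood at 205, 191, 321 and 234 CPM in HOM against 220, 223 and 260 CPM in WT (0.03, SE 0.20, edgeR adjusted p = 0.993). For mfge8a the values were 226, 170, 330 and 248 CPM in HOM against 231, 248 and 280 CPM in WT (-0.05, SE 0.23, edgeR adjusted p = 0.985). HOM3 again led its group in both.

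The genes that came closest to a difference in dyrk1a HOM were those of identity and of the progenitor state. FABP7 ENSDARG00000007697 stood at 1340, 1240, 1290 and 1600 CPM in HOM against 910, 981 and 887 CPM in WT (log2 change 0.57, SE 0.16, edgeR adjusted p = 0.456). FABP7 ENSDARG00000034650 stood at 39.1, 41.2, 37.5 and 36.9 CPM in HOM against 23.9, 28 and 26.3 CPM in WT (0.58, SE 0.17, edgeR adjusted p = 0.495). Both FABP7 IDs were higher in every HOM head than in every WT head. GFAP stood at 25.4, 17.7, 27 and 16.2 CPM in HOM against 12.3, 8.11 and 18.8 CPM in WT, with WT4 inside the HOM range (0.72, SE 0.29, edgeR adjusted p = 0.588). SOX2 stood at 37.7, 33.8, 30.9 and 40.6 CPM in HOM against 75.8, 71.6 and 36.2 CPM in WT, where WT4 lay among the HOM heads (-0.76, SE 0.30, edgeR adjusted p = 0.579). GFAP and SOX2, which mark overlapping cell populations, thus had mean levels on opposite sides of WT, and neither passed the threshold.

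Of the 13 IDs tested in dyrk1a HOM against WT, edgeR called 0 (0% of genes) with 4 at an unadjusted p under 0.05 (7.80% of genes), and DESeq2 called 0 (0.771% of genes). Groups did not overlap for 2 members above WT (4.07% of genes) and 0 below (3.63% of genes). S100B averaged 6.47 ± 1.94 CPM in HOM (n = 4) and 4.63 ± 0.756 CPM in WT (n = 3), a log2 change of 0.49 (SE 0.30, edgeR adjusted p = 0.748). The log2 changes of GLUL ENSDARG00000100003 and of SLC1A3 ENSDARG00000043148 and ENSDARG00000104431 were 0.06 (SE 0.18), -0.26 (SE 0.40) and -0.12 (SE 0.17).

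In dyrk1a HET the groups overlapped for every member tested but GFAP, and 1 of 13 is near the share over all genes. GFAP stood at 27.3, 28.6 and 32 CPM in HET2, HET3 and HET4 and at 12.3, 8.11 and 18.8 CPM in WT. Every HET head was above every WT head. The HET heads were also above all HOM heads, but only just, with HET2 at 27.3 CPM and HOM3 at 27 CPM. The log2 change against WT was 1.18 (SE 0.31, edgeR adjusted p = 1, rank 27 by p among 21025 genes). Of 13 IDs, edgeR called 0 in HET against WT (0% of genes), 1 had an unadjusted p under 0.05 (3.33% of genes) and DESeq2 called 0 (28 of 21025 genes). GFAP was the 1 member above WT without overlap (5.52% of genes), and 0 lay below (6.50% of genes). In HET3, 10 of 13 IDs had the highest value of their group.

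In dyrk1a HOM against HET, edgeR called 0 of 13 IDs (0% of genes), 2 had an unadjusted p under 0.05 (6.61% of genes), and DESeq2 called 0 (157 of 21025 genes). Groups did not overlap for 2 members below (2.71% of genes), GFAP with a log2 change of -0.46 (SE 0.28, edgeR adjusted p = 0.869) and SLC1A2 ENSDARG00000052138, whose HOM libraries held 6 counts in all. FABP7 ENSDARG00000034650 was the 1 member above (4.28% of genes), at 39.1, 41.2, 37.5 and 36.9 CPM in HOM and 29.7, 34.7 and 21.1 CPM in HET (0.43, SE 0.17, edgeR adjusted p = 0.705).

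**Figure D3:**
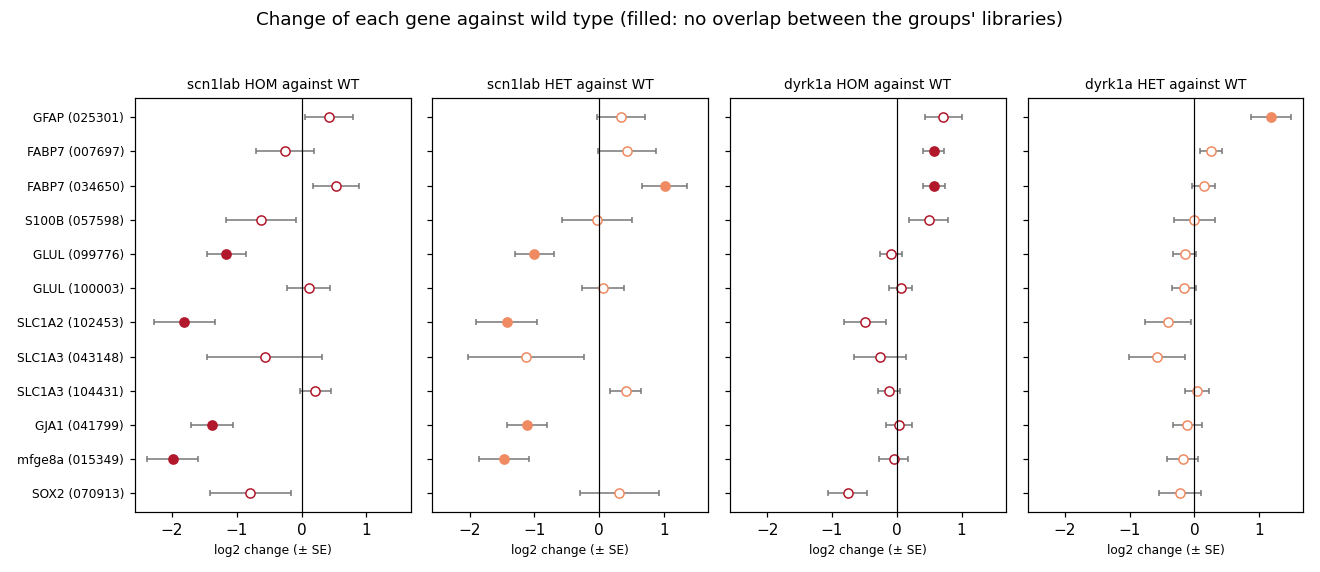
Log2 change with its standard error (x axis, edgeR fit of all genotypes of a line) of 12 radial astroglia gene IDs (rows) in 4 comparisons with WT (panels), with filled points where the libraries of the compared groups do not overlap. GLUL ENSDARG00000099776, SLC1A2 ENSDARG00000102453, GJA1 and mfge8a lie between -1.16 and -1.99 in scn1lab HOM and between -0.49 and 0.03 in dyrk1a HOM.

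The difference between the lines was tested directly in 1 fit of all 19 libraries, as the HOM change in dyrk1a minus the HOM change in scn1lab. It was 1.93 for mfge8a (SE 0.46, edgeR adjusted p = 0.258), 1.41 for GJA1 (SE 0.38, edgeR adjusted p = 0.326), 1.32 for SLC1A2 ENSDARG00000102453 (SE 0.60, edgeR adjusted p = 0.442) and 1.07 for GLUL ENSDARG00000099776 (SE 0.33, edgeR adjusted p = 0.339). EdgeR called 0 of 13 IDs (0.0267% of genes), with 4 at an unadjusted p under 0.05 (10.8% of genes). DESeq2 called 3 (1.16% of genes): mfge8a (adjusted p = 0.0079), GLUL ENSDARG00000099776 (adjusted p = 0.033) and GJA1 (adjusted p = 0.0337). For the HET change, the same contrast gave 0 calls by edgeR (0.00445% of genes) and 0 by DESeq2 (0.409% of genes), with 4 at an unadjusted p under 0.05 in edgeR (6.12% of genes).

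The WT groups of the lines lay apart in level for some members and overlapped for others, among them mfge8a and GJA1. The level of mfge8a averaged 244 ± 66.4 CPM in dyrk1a HOM, 221 ± 62.7 CPM in dyrk1a HET and 253 ± 24.9 CPM in dyrk1a WT, and 41.7 ± 6.67 CPM in scn1lab HOM, 59.6 ± 19.8 CPM in scn1lab HET and 166 ± 83.4 CPM in scn1lab WT (SD, n = 4 for dyrk1a HOM and 3 elsewhere). In order from the lowest mean these are scn1lab HOM, HET and WT, then dyrk1a HET, HOM and WT. The scn1lab HOM and HET libraries overlapped, the 3 dyrk1a groups overlapped, and scn1lab WT overlapped with all 3 dyrk1a groups because of WT3. SOX2 stood at 36.2 to 75.8 CPM in dyrk1a WT and 10.3 to 21.2 CPM in scn1lab WT, and FABP7 ENSDARG00000007697 at 887 to 981 CPM in dyrk1a WT and 395 to 540 CPM in scn1lab WT. GFAP ran the other way, at 8.11 to 18.8 CPM in dyrk1a WT and 19.4 to 26.8 CPM in scn1lab WT. Line, parents and any difference in handling between the lines cannot be told apart here, and these levels were not tested.

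A ratio within a library does not depend on its scaling. The ratio of mfge8a to GFAP was 1.37, 1.52 and 1.2 in the scn1lab HOM heads, 3.05, 2.85 and 1.27 in the HET heads and 5.94, 5.43 and 9.75 in the WT heads. HOM and HET overlapped, and both lay below every WT head. The ratio of GJA1 to GFAP was 2.22 to 2.38 in HOM, 2.32 to 4.64 in HET and 6.76 to 10.1 in WT, and that of SLC1A2 ENSDARG00000102453 was 3.27 to 4.34, 4.08 to 7.45 and 13.8 to 23.9 in the same order. A lower ratio in HOM was not limited to the genes that fell. For FABP7 ENSDARG00000007697 it was 8.55 to 15.6 in HOM, 19.4 to 24.1 in HET and 20.2 to 20.8 in WT. The ratios of FABP7 ENSDARG00000034650 and GLUL ENSDARG00000100003 overlapped between HOM and WT. Such a ratio shows unequal change and does not say which of its genes changed. In dyrk1a, mfge8a over GFAP was 8.92 to 15.4 in HOM, 5.49 to 10.2 in HET and 14.9 to 30.6 in WT, and there GFAP is the member with the larger change.

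**Figure D4:**
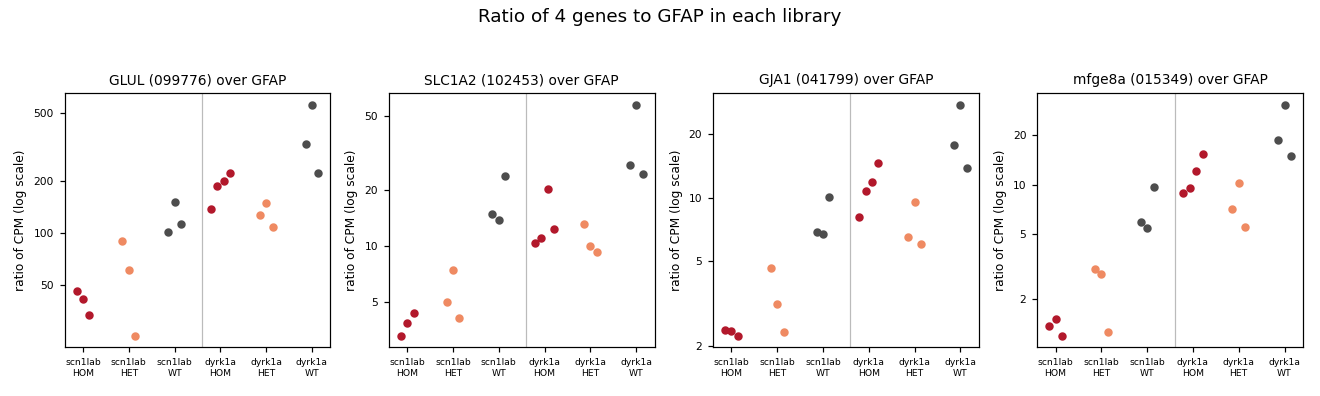
Ratio of the level of 4 genes to that of GFAP (y axis, log scale) in each library (points), by line and genotype. In scn1lab the mfge8a ratio is 1.2 to 1.52 in HOM and 5.43 to 9.75 in WT, and in dyrk1a the HET libraries lie below the WT libraries in all 4 panels.

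Likeness between genes was measured as the root mean square difference of their log2(CPM + 1) values over the 19 libraries, each gene centred within its line. The pair of members most alike was mfge8a and GJA1 (0.22), followed by GJA1 and GLUL ENSDARG00000099776 (0.25) and by GLUL ENSDARG00000100003 and SLC1A3 ENSDARG00000104431 (0.25). Over 10976 other genes with a symbol and a mean of at least 10 CPM, those most like GJA1 were ndrg3a (0.20), RUFY3 (0.21) and si:ch211-137a8.4 (0.22), where the median gene was at 0.62 and a flat profile would be at 0.48. Those most like GFAP were PIP4P1 (0.35), WDR5 (0.38) and ABI1 (0.39), where the median gene was at 0.65 and a flat profile at 0.50, so GFAP had no close partner by this measure. All values come from the same 19 libraries and share their depth and tissue makeup.

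For 2 of the 14 IDs the counts were near 0. CYP19A1 ENSDARG00000041348, the 1 ID found for aromatase, held 0 counts in 15 of 19 libraries and 4 to 13 counts in scn1lab HET1, HET2 and WT3 and in dyrk1a HOM2. It was not tested, and whether it is the brain or the gonad copy is not stated in the sources used here. A count of 0 allows up to 3 counts, so its level was below detection in most heads at this depth. SLC1A2 ENSDARG00000052138 held 205, 138, 100, 74 and 42 counts in scn1lab WT2, scn1lab WT3, dyrk1a HET3, scn1lab HET3 and dyrk1a WT1, and 34 or fewer in the other libraries. The same 5 libraries held the highest summed levels of photoreceptor and Müller glia markers, at 6350, 4630, 1140, 3070 and 1640 CPM in that order. The part of eye tissue in this transcript was not tested.

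Other genes of the same cells and pathways were counted as lists. For scn1lab HOM against WT the median log2 change was 0.09 over all genes tested. Of all genes, 18.9% had an unadjusted p under 0.05, 18.3% lay below every WT head and 18.2% above. EdgeR on HOM and WT alone called 5.75% of all genes lower and 888 of 20684 higher, and DESeq2 on the whole line called 3.75% lower. EdgeR with all libraries of the line called 0 genes of any of the lists below, whose counts at an unadjusted p under 0.05 and by DESeq2 follow. Among 49 other astroglia and radial glia IDs the median was -0.72, with 38 below 0, 14 at an unadjusted p under 0.05, 24 below every WT head and 1 above. EdgeR on HOM and WT alone called 9 of these 49 as lower and 0 as higher, and DESeq2 on the whole line likewise called 9 and 0. ALDOC ENSDARG00000019702, a glycolytic enzyme strong in astrocytes, averaged 262 ± 53.5 CPM in HOM against 800 ± 176 CPM in WT (-1.61, SE 0.35, edgeR adjusted p = 0.156, and 0.0213 with HOM and WT alone). KCNJ10, the potassium channel of astrocytes, averaged 5.3 ± 1.19 CPM in HOM against 20.3 ± 11 CPM in WT (-1.94, SE 0.47, edgeR adjusted p = 0.156, and 0.0357 with HOM and WT alone). NDRG2, at 236 ± 48.2 CPM in HOM against 479 ± 48.6 CPM in WT, was among the 9 and was picked after its values were seen. The summed level of the list still overlapped, at 5320 to 7560 CPM in HOM against 6460 to 7210 CPM in WT. This list shares the name apoeb with the microglia and macrophage list, whose sum was 2640 to 4640 CPM in HOM against 1940 to 2410 CPM in WT. The part of shared genes in the overlap was not tested, and the sum does not speak for most IDs of the list.

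The glutamate and glutamine cycle list had 23 IDs tested in scn1lab HOM, a median log2 change of -0.28, 7 at an unadjusted p under 0.05, and 3 called lower in edgeR on HOM and WT alone (DESeq2 called 2 lower and 1 higher). SLC38A3 ENSDARG00000027065, a glutamine transporter of astrocytes, averaged 45.5 ± 2.18 CPM in HOM against 123 ± 17.6 CPM in WT (-1.43, SE 0.36, edgeR adjusted p = 0.156, and 0.0208 with HOM and WT alone). SLC38A3 ENSDARG00000091061 overlapped between HOM and WT (log2 change 1.1, SE 0.68, edgeR adjusted p = 0.405). SLC17A6, a vesicular glutamate transporter of neurons, made up the rest of the 3 with both of its IDs. SLC17A6 ENSDARG00000041150 averaged 63 ± 3.81 CPM in HOM against 151 ± 21.7 CPM in WT (-1.26, SE 0.33, edgeR adjusted p = 0.16, and 0.021 with HOM and WT alone). SLC17A6 ENSDARG00000001127, picked after its values were seen, averaged 12.1 ± 3.21 CPM in HOM against 33.8 ± 11.9 CPM in WT. The genes called lower in this list are thus known from glia and from neurons, and their cells of origin were not measured here.

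Of 15 other connexin IDs tested in scn1lab HOM the median log2 change was -0.31, 2 had an unadjusted p under 0.05, and DESeq2 called 1 lower. EdgeR on HOM and WT alone called 1 lower of the 13 that this fit tested. In edgeR this was gjd1a, a connexin of electrical synapses between neurons, at 8.19 ± 3 CPM in HOM against 24.5 ± 8.4 CPM in WT (-1.57, SE 0.51, edgeR adjusted p = 0.181, and 0.0392 with HOM and WT alone). Among 18 reactive glia IDs the median was 0.09, 2 had an unadjusted p under 0.05, DESeq2 called 0, and edgeR on HOM and WT alone called 1 lower and 1 higher. The lower one, hmgb1a, a chromatin protein picked after its values were seen, averaged 284 ± 39.2 CPM in HOM against 458 ± 27.3 CPM in WT. The higher one was STAT3, a transcription factor active in reactive astrocytes and in many other cells, at 65.2 ± 21 CPM in HOM against 31.5 ± 0.627 CPM in WT (1.05, SE 0.40, edgeR adjusted p = 0.216, and 0.0425 with HOM and WT alone). SOCS3 ENSDARG00000025428, with the smallest unadjusted p of this list, lay below every WT head, at 12.8 ± 2.42 CPM against 27 ± 8.12 CPM. Its log2 change was -1.07 (SE 0.34, edgeR adjusted p = 0.176, and 0.0535 with HOM and WT alone). SOCS3 ENSDARG00000026611 lay above every WT head (log2 change 0.2, SE 0.3, edgeR adjusted p = 0.756). The 11 IDs for estrogen synthesis and response had a median of 0.04 with 0 called in either fit, 0 by DESeq2 and 0 at an unadjusted p under 0.05. The 20 progenitor and proliferation IDs had a median of 0.07, with 1 at an unadjusted p under 0.05, 0 called by DESeq2 and 1 called lower by edgeR on HOM and WT alone. This was ascl1a, a proneural factor picked after its values were seen, at 18.3 ± 3.38 CPM in HOM against 34.4 ± 1.69 CPM in WT. Counts of genes called or at an unadjusted p under 0.05 in this paragraph were near or below the shares over all genes given above.

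In dyrk1a HOM against WT the median log2 change over all genes was 0.01, and edgeR called 0 genes of any list in either fit. Of all genes, 7.80% had an unadjusted p under 0.05, 4.07% lay above every WT head and 3.63% below. DESeq2 called 0.771% of all genes in either direction. Progenitor and proliferation genes had a median of 1.08, with 20 of 21 above 0 and 10 above every WT head, and 14 had an unadjusted p under 0.05. DESeq2 called 6 of the 21 as higher and 0 as lower, and their sum was 934 to 1220 CPM in HOM against 548 to 852 CPM in WT. MCM2, a subunit of the replicative helicase, averaged 65.2 ± 26 CPM in HOM against 21.3 ± 8.86 CPM in WT (1.63, SE 0.41, edgeR adjusted p = 0.449). PCNA, the sliding clamp of replication, averaged 174 ± 41.9 CPM in HOM against 86.8 ± 26.6 CPM in WT (1.01, SE 0.25, edgeR adjusted p = 0.449). SOX2, at a log2 change of -0.76, was on the other side of 0 from these genes. VIM ENSDARG00000010008, for the second intermediate filament of radial glia, averaged 166 ± 13.8 CPM in HOM against 256 ± 21.9 CPM in WT with no overlap (-0.62, SE 0.13, edgeR adjusted p = 0.449). The other ID, VIM ENSDARG00000044501, averaged 4.72 ± 1.05 CPM in HOM against 2.74 ± 0.467 CPM in WT, also with no overlap and on the other side (0.79, SE 0.40, edgeR adjusted p = 0.67). The other astroglia list had a median of -0.07 over 49 IDs, with 5 at an unadjusted p under 0.05 and 1 called lower by DESeq2. The glutamate and glutamine cycle list had a median of -0.11 over 21 IDs, the connexins -0.01 over 16, the estrogen list -0.39 over 8 and the reactive glia list 0.06 over 18. DESeq2 called 0 genes in each of these, and 0, 3, 0 and 1 had an unadjusted p under 0.05 in the same order.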

How the data were processed

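The authors deposited 1 table of raw gene counts per library, whole numbers for 32020 Ensembl gene IDs. Per the submitters' processing notes, the tools included Trim Galore 0.5.0, HISAT2 2.1.0, StringTie 1.3.3b and DESeq2 1.22.1 with genome build GRCz11. Per the labels' protocols, RNA came from either of 2 extraction kits, and which library had which is not given in the sources used here. A supplied table gave a symbol for 28975 IDs. No promoter or protein sequences were used here. The counts were analysed in R 4.3.3 with edgeR 4.0.16 (filterByExpr, TMM, robust quasi-likelihood F tests, two-sided, Benjamini-Hochberg adjustment over all genes tested, threshold 0.05) in 1 fit per line, and in 1 fit of all 19 libraries for the difference between lines. Each SE was taken as the absolute log2 change over the root of its F statistic. DESeq2 1.42.0 with its size factors, median-ratio scaling in edgeR, no filter, only the groups compared, a replicate block, the digestive level as a covariate, and leaving out libraries were alternatives. The fits of HOM and WT alone that leave out a library, and DESeq2 on HOM and WT alone, were added after the data were seen. The genes, lists and tests were chosen with earlier results of these data known. The text names every member, and from each of the other lists up to 3 genes with a mean of at least 1 CPM and the smallest unadjusted p per line, and says where a gene was chosen otherwise. Some genes that this rule names are not reported here. Of 406 other list names, 57 matched no ID. Replicates are single larvae. No library pair differed by as little as sampling noise. The scripts were tested on simulated data.

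The 95% Wilson intervals of the digestive shares extend by no more than 0.014 percentage points, and they and the floor of 3 counts cover counting error only.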

Additional observations from a re-analysis of the deposited data

Results flagged for a closer look

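Among 13 radial astroglia gene IDs in the 4 dyrk1a HOM libraries, the group of a size that allows the check, GLUL ENSDARG00000099776 had a library far from the others. This was HOM3 at 5460 CPM, with HOM1, HOM2 and HOM5 at 3510, 3310 and 3610 CPM. Chance alone gives such a library for about 1 in 20 of the IDs checked, so 1 among 13 can arise by chance. HOM3 was the highest HOM library for 6 of the 13 IDs. SLC1A2 ENSDARG00000052138 also met the check, at 0.269 CPM or 6 counts in HOM1 and 0 counts in HOM2, HOM3 and HOM5. With the other libraries at 0, any count above 0 would do so, and it carries no weight as an outlying library.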

How the results depend on the processing

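In scn1lab HOM against WT the number of members called was 0 in edgeR on the whole line, and 4 in DESeq2, in edgeR on HOM and WT alone and in DESeq2 on HOM and WT alone. When edgeR on HOM and WT alone left out each library in turn the number was 0 to 2. DESeq2 called 2 in scn1lab HET against WT and 3 when the HOM change was compared across lines, where edgeR called 0. The cause of these differences was not tested. All other alternatives called 0 members, as did every comparison not named here. Over all genes in scn1lab HOM against WT, the count was 1 in edgeR, 4 without the filter, 2077 with HOM and WT alone, 1574 in DESeq2, 4661 in DESeq2 on HOM and WT alone, and 0 to 1810 when HOM and WT alone left out a library. DESeq2 gave 338 genes in scn1lab HET against WT (0 in edgeR), 58 in scn1lab HOM against HET (1), 162 in dyrk1a HOM against WT (0), 28 in dyrk1a HET against WT (0), 157 in dyrk1a HOM against HET (0), and 260 and 92 for the HOM and HET differences between lines (6 and 1).

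The log2 change of mfge8a ENSDARG00000015349 in scn1lab HOM ran from -2.37 to -1.50 over 20 alternatives, that of GJA1 ENSDARG00000041799 from -1.73 to -1, that of SLC1A2 ENSDARG00000102453 from -2.19 to -1.34 and that of GLUL ENSDARG00000099776 from -1.43 to -1.03. With the digestive level as a covariate, mfge8a ENSDARG00000015349 scn1lab HOM against WT was at -1.79 (edgeR adjusted p = 0.438). Medians near 0 changed sign: over the same alternatives the scn1lab HOM median ran from -0.25 to 0.08 for progenitor genes, -0.13 to 0.09 for reactive glia and -1.02 to 0.36 for the estrogen list, while that of other astroglia genes ran from -1.07 to -0.47.

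Small changes reversed when a library was left out. In scn1lab HOM against WT, GLUL ENSDARG00000100003 ran from -0.10 to 0.21, with -0.02, -0.01, -0.10 and -0.07 without HOM1, HOM2, WT2 and WT3, and was at -0.02 with HOM and WT alone without HOM1. SLC1A3 ENSDARG00000104431 ran from -0.03 (without WT3) to 0.26, and with HOM and WT alone SLC1A3 ENSDARG00000043148 was at 0.14 without WT3. In dyrk1a HOM against WT, GLUL ENSDARG00000100003 ran from -0.07 (without WT4) to 0.19. GJA1 ENSDARG00000041799 ran from -0.14 (without HOM3) to 0.11, with -0.02 without WT1 and without WT2. For mfge8a ENSDARG00000015349 the range was -0.22 to 0.09, with 0.09 and 0.03 without HOM2 and WT4.

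The deviations of same-numbered libraries correlated at -0.40 to 0.14 in scn1lab (2 of 9 pairs over 0.1) and at -0.20 to 0.31 in dyrk1a (3 of 6). Libraries with different numbers gave -0.32 to 0.43 in scn1lab (6 of 18) and -0.29 to 0.31 in dyrk1a (6 of 27). In scn1lab the same-numbered libraries were thus no more alike than others. In dyrk1a the 6 pairs are too few to decide whether the numbers pair the samples. With the replicate block edgeR called 0 members in every comparison and 2 genes in scn1lab HOM against WT, and mfge8a ENSDARG00000015349 scn1lab HOM against WT was at -1.95 (adjusted p = 0.203). In dyrk1a HOM against WT the block put GLUL ENSDARG00000100003 at -0.11 and GJA1 ENSDARG00000041799 at -0.15.

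With 3 or 4 single heads per group, and counts near 0 for CYP19A1 and SLC1A2 ENSDARG00000052138, depth and replicate number limit what can be seen. Transcript lengths were not used here, so a share or ratio of genes is compared between libraries and not read as one gene being more abundant than another.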

Other observations

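Other cell types were measured in the same heads. Of all genes tested in scn1lab HOM against WT, 18.3% lay below every WT head and 18.2% above, and edgeR on HOM and WT alone called 5.75% lower. In scn1lab HOM against WT, 8 of 19 microglia and macrophage markers lay above every WT head and 0 below, with a median log2 change of 0.92. Their sum was 2640 to 4640 CPM in HOM, against 1940 to 2410 CPM in WT, and the list shares the name apoeb with the other astroglia list. The microglia and macrophage marker csf1ra overlapped, at 2.44 to 8.16 CPM in HOM against 6.3 to 7.21 CPM in WT. P2RY12 also overlapped, at 0 to 0.512 CPM against 0.355 to 0.437 CPM. EdgeR called 0 of the 19 markers on the whole line, with 5 at an unadjusted p under 0.05. It called 3 as higher on HOM and WT alone, and DESeq2 called 2 as higher. Among cartilage and bone markers 12 of 28 lay below every WT head, with a median of -0.29 and a sum of 561 to 981 CPM in HOM, against 1120 to 1470 CPM in WT. EdgeR on HOM and WT alone called 5 of these as lower. Among 13 oligodendrocyte markers, edgeR on HOM and WT alone called UGT8 and FA2H, enzymes of myelin lipid synthesis also used by other tissues, as higher, at 28.2 ± 5.87 and 31.1 ± 14.9 CPM in HOM and 10.4 ± 1.04 and 11 ± 2.38 CPM in WT, and called the lineage factor olig1 as lower, at 2.91 ± 0.121 CPM in HOM against 7.41 ± 1.96 CPM in WT (SD, n = 3 each). These 3 were picked after their values were seen.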
